A study of Mus musculus with 40 samples.

Results

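Gene expression was compared between a mouse embryonic stem (ES) cell clone carrying a stably integrated *Nanog* transgene and the ES cell line of the same strain from which such a clone was made. The comparison uses 6 of the 40 arrays analysed: the 3 arrays titled Nanog/EF1#6 and the 3 titled ES 129.3, paired by culture medium, and it describes the genes that moved the same way in all 3 media. Nanog/EF1#6 (called the integrated clone) is 1 clone, number 6, of male 129SvEv-Tac cells with *Nanog* cDNA in a pEF6/IRES neo plasmid, whose neo gene allowed selection with G418. The promoter that drives *Nanog* is given only through the vector's name and EF1 in the clone's name. ES 129.3 is labelled male, 129SvEv-Tac and passage 12, with no genetic modification. The parental line carries another name in the methods of the study, and a description deposited with the samples names other lines again, so the 2 lines were matched by strain. Both were passaged on gelatin to remove feeder cells and grown for 3 days in complete medium with LIF (LIF+), without LIF (LIF-) or with LIF and 1 µM retinoic acid (RA), 1 array for each line and medium. The arrays serve to ask which genes follow forced *Nanog* expression. A clone differs from its parental line also in the site of integration, the drug selection and its founder cell, and with 1 clone these cannot be told apart from the transgene. For a comparison, the 6 arrays of an episomal *Nanog* clone and its parental line MG1.19 in the same media were used, which share no array with the 6 above. MG1.19 (passage 5, 129Sv, male) expresses polyoma large T antigen, which maintains the episomal plasmid, and that clone was selected with puromycin.

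Nanog is a homeodomain transcription factor of the naive pluripotency network, in which it acts with Pou5f1 (Oct4), Sox2, Esrrb, Klf4, Tbx3 and Tfcp2l1. LIF feeds into that network through Stat3, and ES cells kept without LIF leave the naive state unless Nanog is supplied. RA acts through nuclear receptors and drives ES cells out of pluripotency towards neural and endodermal fates. Flat, adherent cells that have left the ES cell state build actin stress fibres, and serum response factor (SRF) is known for switching on actins and actin-binding proteins in them.

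Each array held the cells' RNA in Cy3 beside a common reference, Universal Mouse Reference RNA, in Cy5. A level is log2(Cy3/Cy5) of 1 probe, and a difference is the clone's level minus that of ES 129.3 in the same medium. Levels and differences are given in the order LIF+, LIF- and RA. The median Cy3 signal of the gene spots was 531 to 662 per array, where the local background was 375 to 378, and 2.07% to 3.12% of gene spots lay below the 95th percentile of the negative controls. Arrays are 1 to a slide, and all 6 were extracted from the scans on 1 day. In the order of the slide barcodes those of ES 129.3 come before those of the clone, so that slide order and line cannot be told apart. Defining transcripts of ES cells were read as a sum in both lines, and 10 of 10 marker genes had a probe. Their background-corrected Cy3 signal summed to 59768 to 104952 in ES 129.3 and to 89890 to 105404 in the clone. A sum does not show the level of each marker. Of these markers *Zfp42* alone was called, as higher in the clone.

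*Nanog* itself was read by 1 probe. Its level was 1.61, 1.83 and 1.27 in ES 129.3 and 2.48, 2.00 and 2.49 in the clone. All 3 clone arrays lay above all 3 parental arrays, but the gap was narrow without LIF, with differences of 0.87, 0.17 and 1.22. The mean difference was 0.75 ± 0.53 (SD over 3 media, adjusted p = 0.12) and was not called, while without the LIF- pair it was 1.04 with an adjusted p of 0.0415. Here and below an SD is that of the 3 differences, while adjusted p-values come from limma, which moderates each gene's variance towards that of all genes. The probe bears on what this can show, and its last 30 bases are printed here with stop codons in capitals.
Nanog probe: tgtcatttTGAggggTGAggttTAAaagta
Over its 60 bases, read in the direction of the file, the probe holds 4 stop codons spread over all 3 frames, so it does not lie wholly within coding sequence. Whether the cloned cDNA reached this stretch is not given in the sources used here, and so this probe alone does not check the label of the clone. *Pou5f1*, the partner of Nanog at many of its binding sites, had levels of 2.16, 2.79 and 0.49 in ES 129.3 and 2.77, 2.27 and 2.42 in the clone. It differed most on RA, where the clone was 1.93 higher, and its mean difference of 0.67 was not called (adjusted p = 0.505).

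A gene was called when the mean difference over the 3 media was at least 1.5-fold with an adjusted p of 0.05 or less (limma, two-sided, 37715 genes). The media are conditions and not replicate cultures, so the test measures how steady the difference was from medium to medium, for this clone and this line. By this rule 1557 genes were called (4.13%), of which 916 were lower (2.43%) and 641 higher (1.7%) in the clone. With the Cy3 signal alone, without the reference channel, the split turned to 580 lower and 718 higher. Without the LIF+ pair 429 genes were called. Among genes with a symbol 980 of 13380 were called (7.32%), with 686 lower (5.13%) and 294 higher (2.2%), and the other 577 called genes have no symbol here. A change of at least 1.5-fold in the same direction in each of the 3 media was seen in 1118 genes (2.97%), 642 of them lower (1.7%) and 476 higher (1.26%), and 1055 of the 1118 were also called. With the Cy3 signal alone, 516 genes were lower and 623 higher in this way. Of the called genes 683 had both a symbol and a change of 1.5-fold in every medium, 485 lower and 198 higher. On all 6 arrays the Cy3 signal of all 1557 called genes exceeded the 95th percentile of the negative controls. The same held for 36060 of the 37715 genes tested, so it does not set the called genes apart.

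**Figure D1:**
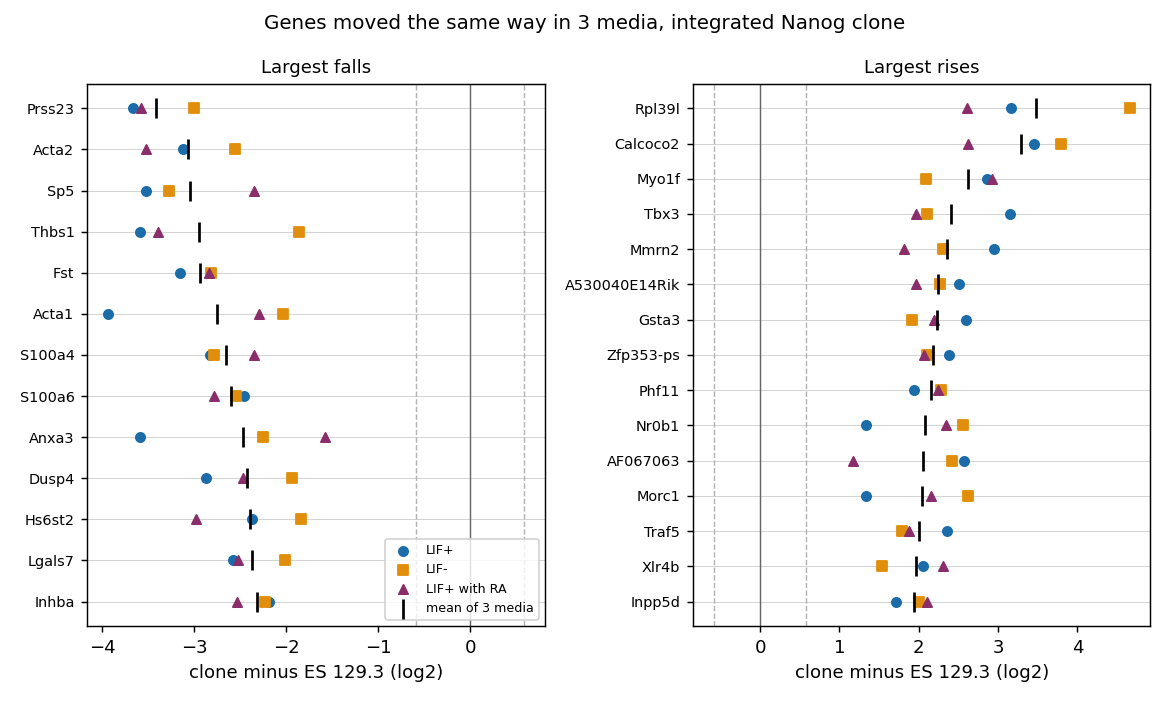
Difference between the integrated Nanog clone and ES 129.3 (x axis, log2) for 13 of the 15 genes with a symbol that fell most (left) and the 15 that rose most (right) among those called and at least 1.5-fold in each medium. Each symbol is 1 medium, the bar is the mean of 3 media, and dashed lines mark 1.5-fold. Prss23 lies between -3.67 and -3.00, and Rpl39l spreads from 2.60 to 4.66.

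*Prss23*, a secreted serine protease, had levels of 0.26, 0.18 and 2.06 in ES 129.3 and -3.41, -2.83 and -1.52 in the clone. Every clone array was far below every parental array, and the mean difference of -3.42 ± 0.36 (SD over 3 media, adjusted p = 0.00506) corresponds to 10.7-fold. *Thbs1*, the matricellular glycoprotein thrombospondin 1, fell less without LIF than in the other media, with differences of -3.58, -1.86 and -3.39 and a mean of -2.95 ± 0.94 (SD over 3 media, adjusted p = 0.0215). *Sp5*, a zinc finger factor known as a Wnt target, had levels of 4.55, 4.87 and 3.42 in ES 129.3 and 1.03, 1.59 and 1.07 in the clone, a difference of -3.05 ± 0.62 (SD over 3 media, adjusted p = 0.00996). For *Prss23* and *Sp5* the groups did not overlap, as was the case for 3957 genes with all clone arrays lower (10.5%) and 3913 with all clone arrays higher (10.4%).

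Activin, a TGF-beta family ligand, and its antagonist fell together. *Fst* encodes follistatin, which binds and neutralises activin, and its levels were 1.56, 3.03 and 1.52 in ES 129.3 and -1.60, 0.21 and -1.32 in the clone. The clone was lower in each medium by a like amount, -2.94 ± 0.19 (SD over 3 media, adjusted p = 0.00447), and a second, dimmer probe for *Fst* gave -1.43. *Inhba* encodes the subunit of activin A, with levels of -0.45, -0.64 and 0.01 against -2.64, -2.87 and -2.53 and a difference of -2.32 ± 0.19 (SD over 3 media, adjusted p = 0.0047). The calcium-binding proteins S100a4 and S100a6 also fell. Levels of *S100a4* were -3.62, -3.77 and -3.99 in ES 129.3 and -6.45, -6.56 and -6.34 in the clone, with -2.65 ± 0.27 (SD over 3 media, adjusted p = 0.00506). *S100a6* differed by -2.60 ± 0.17 (SD over 3 media, adjusted p = 0.00447). Neither gene's groups overlapped. Others among the 15 largest falls were *Acta2* and *Acta1* (given with the contractile genes), *Anxa3*, a phospholipid-binding annexin (-2.47), *Dusp4*, a phosphatase of MAP kinases (-2.43), *Hs6st2*, a sulfotransferase of heparan sulfate (-2.40), and *Lgals7*, a galectin (-2.38). A second, dimmer probe for *Lgals7* read 0.08, so its fall rests on 1 probe.

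Among the rises, *Rpl39l*, a paralog of the ribosomal protein gene *Rpl39* known from testis, had levels of -0.91, -2.75 and -0.97 in ES 129.3 and 2.25, 1.91 and 1.63 in the clone. Its difference of 3.47 ± 1.06 (SD over 3 media, adjusted p = 0.0198) corresponds to 11.1-fold and was largest without LIF. *Calcoco2*, an autophagy receptor, had levels of 1.55, 0.67 and 4.25 against 5.00, 4.47 and 6.88. It was highest on RA in both lines, the clone lay above its partner in each medium, and the difference was 3.29 ± 0.60 (SD over 3 media, adjusted p = 0.00881). *Myo1f*, an unconventional myosin best known from leukocytes, had levels of -0.36, -2.30 and -1.21 and 2.50, -0.21 and 1.71 and differed by 2.62 ± 0.46 (SD over 3 media, adjusted p = 0.00867). *Mmrn2*, an extracellular matrix glycoprotein of endothelium, differed by 2.36 ± 0.57 (SD over 3 media, adjusted p = 0.0134). Further rises were those of *Gsta3*, a glutathione S-transferase (2.23), *Phf11*, a PHD finger gene (2.15), *Traf5*, an adaptor of TNF receptors (2.00), *Inpp5d*, the inositol phosphatase SHIP1 (1.94), and *Xlr4b*, of an X-linked family of near-identical copies (1.97). For *Traf5* and *Xlr4b* further probes went the other way or hardly differed, at -0.23 and -0.07, and for *Xlr4b* its copies may share the signal. *A530040E14Rik* (2.25), *Zfp353-ps* (2.19) and *AF067063* (2.05) rose as well. The remaining 3 of the 15, *Tbx3*, *Nr0b1* and *Morc1*, belong to the ES cell lists.

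The naive pluripotency network rose in part. Of 18 core factors measured, 6 were called, all of them higher in the clone (33.3%, against 2.2% of genes with a symbol called higher), and the median difference over the 18 was 0.60, against -0.01 over all genes with a symbol. With no background correction 1 of the 18 was called, and with the medium not fitted as a block 0 were. This list and those below were chosen with earlier results of these data known, so their shares are no independent evidence of a direction. *Tbx3*, a T-box factor that sustains the naive state, had levels of 1.09, 0.27 and 2.62 in ES 129.3 and 4.24, 2.37 and 4.59 in the clone. In both lines *Tbx3* was lowest without LIF and the groups overlapped, while the clone stood above its partner in each medium by 2.41 ± 0.64 (SD over 3 media, adjusted p = 0.0158). *Nr0b1* encodes the orphan nuclear receptor Dax1, with levels of 4.29, 1.45 and 1.46 against 5.62, 4.02 and 3.80. In ES 129.3 it was far lower without LIF and on RA than with LIF, in the clone less so, and the difference was 2.08 ± 0.65 (SD over 3 media, adjusted p = 0.0212). *Klf4*, a Krüppel-like factor downstream of Stat3, had levels of 0.73, -1.44 and 0.15 and 2.25, -0.46 and 1.83, a difference of 1.39 ± 0.36 (SD over 3 media, adjusted p = 0.0162). *Tfcp2l1*, a further factor downstream of Stat3, had levels of 2.37, 0.38 and 1.85 and 3.51, 1.61 and 3.43 and differed by 1.32 ± 0.24 (SD over 3 media, adjusted p = 0.00989). In either line both were lowest on the LIF- array. *Zfp42* (Rex1), a zinc finger marker of naive ES cells, had levels of 5.20, 4.12 and 4.42 against 6.01, 5.49 and 5.52, with no overlap between the lines, and differed by 1.09 ± 0.28 (SD over 3 media, adjusted p = 0.0167). *Nr5a2*, a nuclear receptor that binds the *Pou5f1* enhancers, differed by 0.75 ± 0.05 (SD over 3 media, adjusted p = 0.00848).

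**Figure D2:**
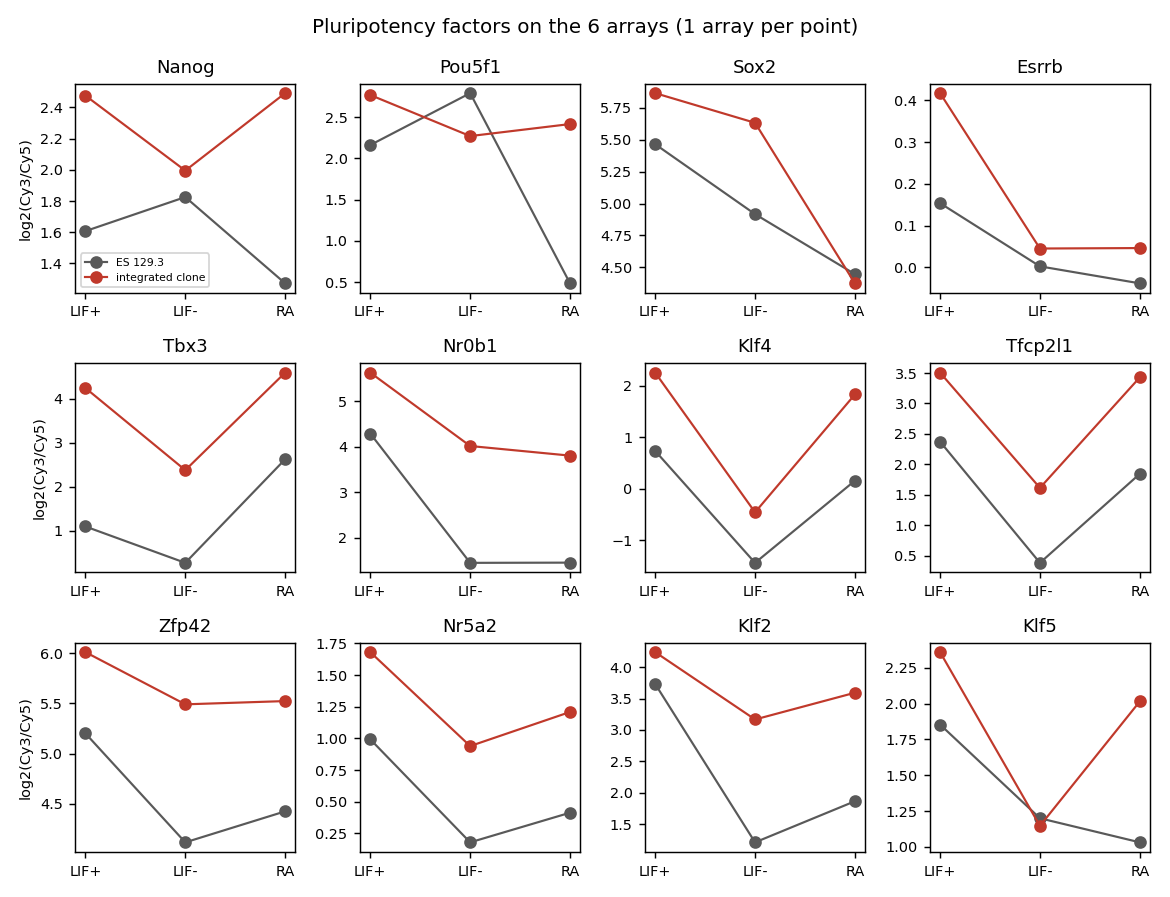
Levels (y axis, log2 of Cy3/Cy5, with its own range in each panel) of 12 pluripotency factors in 3 media (x axis). Each point is 1 array, grey for ES 129.3 and red for the integrated clone. Tbx3, Nr0b1, Klf4, Tfcp2l1, Zfp42 and Nr5a2 are higher in the clone in every medium, and Pou5f1 differs mainly on RA.

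The other 12 core factors were not called. Among them *Sox2*, the partner of Pou5f1, had differences of 0.40, 0.72 and -0.07, and *Esrrb*, an orphan nuclear receptor regulated by Nanog, had 0.26, 0.04 and 0.08. *Klf2*, a Krüppel-like factor of the naive state, had levels of 3.73, 1.21 and 1.86 in ES 129.3 and 4.24, 3.17 and 3.59 in the clone and a mean difference of 1.40 (adjusted p = 0.0693), with the wider gaps without LIF and on RA. *Klf5*, of the same family, differed by 0.50, -0.05 and 0.98.

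Of 25 further genes that ES cells express, 13 were called (52%, against 7.32% of genes with a symbol), 10 higher and 3 lower, and the median difference was 0.77. Without the LIF+ pair 5 were called, all of them higher, with no background correction 0 and without the block 1. *Morc1*, known from the germ line, had levels of 3.48, 1.29 and 0.94 in ES 129.3 and 4.81, 3.92 and 3.10 in the clone and differed by 2.04 ± 0.66 (SD over 3 media, adjusted p = 0.0222). *Tcl1*, a coactivator of Akt, had 2.28, 0.43 and 0.46 against 3.71, 2.35 and 1.69, with 1.53 ± 0.36 (SD over 3 media, adjusted p = 0.0133). In ES 129.3 both genes were highest with LIF and lower on the other arrays, so that the groups overlapped. *Dppa2*, a chromatin-associated ES cell factor, did not overlap and differed by 1.21 ± 0.33 (SD over 3 media, adjusted p = 0.0174). The other rises were *Fbxo15*, an F-box gene used as an ES cell reporter (1.41), *Spp1*, osteopontin (1.16), *Nodal*, the ligand of early axis formation (0.90), *Dnmt3l*, a cofactor of DNA methylation (0.86), *Jam2*, a junctional adhesion molecule (0.79), *Rif1*, a factor of telomeres and replication timing (0.77), and *Jarid2*, a subunit of Polycomb complex PRC2 (0.68). The 3 falls went against the rest of the list. *Dppa3* (Stella), a maternal factor that guards DNA methylation, had levels of 3.97, 2.97 and 2.80 in ES 129.3 and 1.65, 1.40 and 1.72 in the clone, a difference of -1.66 ± 0.62 (SD over 3 media, adjusted p = 0.0302). *Trh*, thyrotropin-releasing hormone, fell by 2.04 ± 0.85 (SD over 3 media, adjusted p = 0.037), and *Lefty2*, an inhibitor of Nodal, differed by -1.16 ± 0.42 (SD over 3 media, adjusted p = 0.0296). *Lefty1*, a second Nodal inhibitor, was lower in each medium, with differences of -2.64, -0.78 and -1.48, but was not called (adjusted p = 0.0734).

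Contractile genes and targets of SRF formed the list with the largest number of called genes. All 22 genes of that list were measured, 16 were called (72.7%, against 5.13% of genes with a symbol called lower), all 16 were lower in the clone, and the median difference was -1.56. The list was written with *Prss23* and *Acta2* already known as leading genes of this clone, so its count is no independent evidence of a direction. Without the LIF+ pair 5 genes of the list were called, with no background correction 2 and without the block 0. *Acta2*, smooth muscle alpha-actin, had levels of -0.42, -0.67 and 2.23 in ES 129.3 and -3.55, -3.23 and -1.30 in the clone. The clone on RA, its highest array, was still below the lowest parental array, and the difference of -3.07 ± 0.49 (SD over 3 media, adjusted p = 0.00784) corresponds to 8.41-fold. *Acta1*, skeletal alpha-actin, had levels of 2.60, 2.35 and 3.90 against -1.34, 0.31 and 1.60 and differed by -2.76 ± 1.03 (SD over 3 media, adjusted p = 0.0292). The coding sequences of actins are alike, so their probes may share signal. *Tagln* (transgelin), an actin-binding protein of smooth muscle, had 1.77, 1.83 and 2.87 against -1.35, 0.12 and 0.85, a difference of -2.28 ± 0.75 (SD over 3 media, adjusted p = 0.0226). *Cnn1* and *Cnn2*, the calponins, fell by 2.25 and 1.57 on the log2 scale, *Tpm1* and *Tpm2*, the tropomyosins, by 2.03 and 1.97, and *Cald1*, caldesmon, by 1.89. *Fhl2*, a LIM domain cofactor, fell by 2.14, *Vcl*, vinculin of focal adhesions, by 1.55, *Csrp1*, a LIM protein, by 1.39, *Ccn1*, a matricellular protein, by 1.35, *Tgfb1i1* (Hic-5), an adaptor of focal adhesions, by 1.02, and *Flna*, filamin A, by 0.98. *Srf* itself had levels of 0.00, 0.17 and 0.16 in ES 129.3 and -0.94, -0.29 and -0.52 in the clone and differed by -0.69 ± 0.24 (SD over 3 media, adjusted p = 0.0317). The 6 genes not called were *Myl9* (-1.58), *Actg2* (-1.51), *Ccn2* (-1.07), *Egr1* (-0.93), *Lmod1* (-0.20) and *Actc1* (-0.16).

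**Figure D3:**
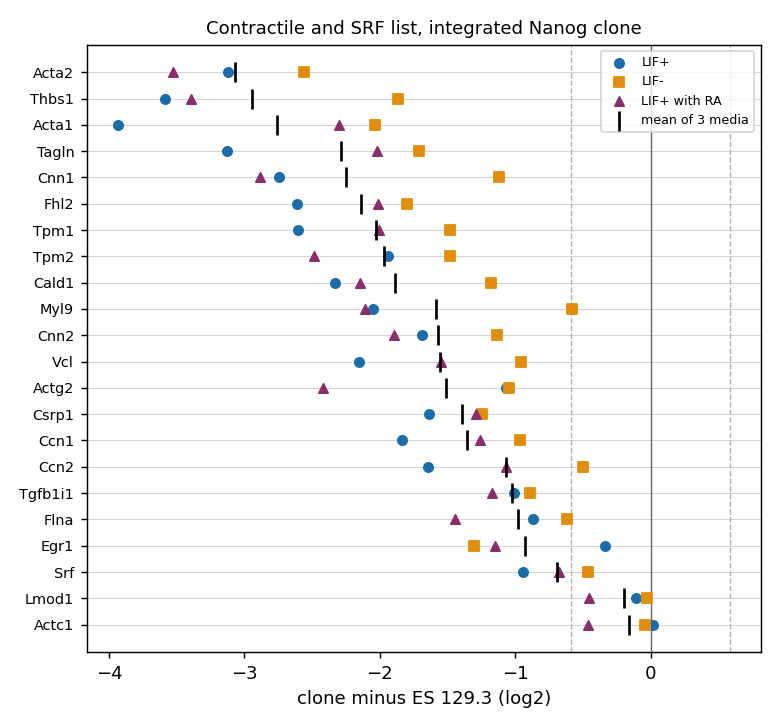
Difference between the integrated Nanog clone and ES 129.3 (x axis, log2) for the 22 genes of the contractile and SRF list (y axis), ordered by the mean of 3 media (bar), with 1 symbol per medium and dashed lines at 1.5-fold. Means run from -3.07 for Acta2 to -0.16 for Actc1, and the LIF- square of most genes lies nearest to 0.

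SRF binds the CArG box, and promoters of 4 called genes that hold one are shown, since the list is made of genes known to answer to SRF. Each window runs from 250 bases before to 50 bases after the RefSeq transcription start (GRCm38.p6), 5′ to 3′ along the gene, with the CArG box in capitals.
Acta1 (chr8:123894726-123895025, minus strand): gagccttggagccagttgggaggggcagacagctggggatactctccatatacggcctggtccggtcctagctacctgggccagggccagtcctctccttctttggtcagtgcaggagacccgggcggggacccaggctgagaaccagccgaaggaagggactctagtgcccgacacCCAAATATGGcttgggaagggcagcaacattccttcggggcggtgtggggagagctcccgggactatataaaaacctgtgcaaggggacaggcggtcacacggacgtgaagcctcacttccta
Fhl2 (chr1:43163912-43164211, minus strand): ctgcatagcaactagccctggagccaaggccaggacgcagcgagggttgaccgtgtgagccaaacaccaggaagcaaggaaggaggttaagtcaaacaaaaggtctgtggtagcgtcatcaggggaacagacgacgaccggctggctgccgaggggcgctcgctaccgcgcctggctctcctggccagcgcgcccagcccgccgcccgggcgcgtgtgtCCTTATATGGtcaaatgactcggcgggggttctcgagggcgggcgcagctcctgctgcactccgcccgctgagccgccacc
Srf (chr17:46556113-46556412, minus strand): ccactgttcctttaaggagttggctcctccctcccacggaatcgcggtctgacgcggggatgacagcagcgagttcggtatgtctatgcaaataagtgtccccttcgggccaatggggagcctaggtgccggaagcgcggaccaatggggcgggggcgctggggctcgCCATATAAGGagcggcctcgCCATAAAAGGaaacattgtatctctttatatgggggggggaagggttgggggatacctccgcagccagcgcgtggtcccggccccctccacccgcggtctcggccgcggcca
Vcl (chr14:20929148-20929447, plus strand): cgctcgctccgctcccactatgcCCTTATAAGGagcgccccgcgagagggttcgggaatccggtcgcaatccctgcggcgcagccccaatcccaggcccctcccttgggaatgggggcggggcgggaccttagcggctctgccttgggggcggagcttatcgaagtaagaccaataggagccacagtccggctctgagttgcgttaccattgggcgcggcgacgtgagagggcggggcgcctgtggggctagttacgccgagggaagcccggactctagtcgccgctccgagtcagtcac
The CArG box was searched on both strands of the windows, and no other motif was. It starts at position -73 from the start site in *Acta1*, -31 in the *Fhl2* window shown and -227 in *Vcl*, and *Srf* holds 2 boxes. Another *Fhl2* window, at a further start site, holds a box at -96. Of the 22 genes 16 had a window in the table, and 7 of these hold the box (*Acta1*, *Actc1*, *Cnn2*, *Fhl2*, *Myl9*, *Srf* and *Vcl*), against 1.63% of all 32851 windows and 1.76% of 10622 tested genes with a window. With fewer than 80% of the list matched, the share over the list is not read further. *Actc1* and *Myl9* hold the box and were not called, and the window of *Acta2* does not hold these letters.

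Genes of fibroblasts and feeder cells were lower in the clone by their median. Of 19 measured, 5 were called and all 5 were lower (26.3%, against 5.13% of genes with a symbol called lower), and the median difference was -0.85. *S100a4* and *S100a6* are among the largest falls, and the list was chosen with earlier results known, so this share is no independent evidence. Without the LIF+ pair 3 were called, and with no background correction or without the block 2. In each of the 3 media 17 of the 19 were lower, where 22.4% of all genes were lower and 22.6% higher in every medium. The 5 were *S100a4*, *S100a6*, *Fbln2*, a fibulin of elastic fibres (-2.25), *Lox*, the oxidase that cross-links collagen (-1.75), and *Fn1*, fibronectin (-1.09). *Lox* had levels of -2.54, -2.56 and -1.91 in ES 129.3 and -4.17, -4.30 and -3.80 in the clone, with no overlap. Defining fibroblast genes were not called: *Col1a1*, the main chain of type I collagen, had levels of -2.39, -2.40 and -0.67 against -2.68, -2.87 and -2.74 and differed most on RA, and *Thy1*, a surface antigen of fibroblasts, differed by -0.01, -0.04 and -0.05. Of 10 feeder markers 8 were measured, of which limma called 0 and 4 had an unadjusted p under 0.05, as had 33.4% of all genes with a symbol. Over these 8 the summed background-corrected Cy3 signal was 4587, 3796 and 8608 in ES 129.3 and 1998, 2659 and 3208 in the clone. All parental sums were above all clone sums, and they moved with the contractile and matrix genes described above. Their part in those results was not tested. In bulk RNA, fewer cells of a type and less RNA per cell cannot be told apart.

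Of 24 genes of the TGF-beta, BMP and Nodal pathways 7 were called (29.2%, against 7.32% of genes with a symbol), 6 lower and 1 higher, with a median of -0.21 over the list. The count was 2 without the LIF+ pair, 1 with no background correction and 2 without the block. By role, the called genes were ligands, receptors and antagonists. The ligands were *Inhba* and *Tgfb2* on the lower side, the latter with levels of -0.39, -0.39 and 1.37 in ES 129.3 and -1.60, -1.51 and -1.09 in the clone and a difference of -1.60 ± 0.75 (SD over 3 media, adjusted p = 0.0481), and *Nodal* on the higher side. *Nodal* had levels of 0.67, 1.16 and 0.54 against 1.74, 1.90 and 1.43 with no overlap. The receptors *Tgfbr2* and *Bmpr1a* differed by -0.82 and -0.81. *Fst* and *Lefty2* were the antagonists. The Id genes, targets of BMP through Smads, were not among the calls, and *Id1*, *Id2* and *Id3* had mean differences of 0.62, 0.02 and -0.08.

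Genes of differentiated lineages were read from 4 lists, beside a share of 7.32% called and 5.13% called lower among genes with a symbol. Of 17 primitive streak and mesoderm genes 3 were called, all lower (17.6%): *Lefty2*, *Flt1*, a VEGF receptor (-1.94), and *Wnt3*, the Wnt ligand that starts the streak (-1.53). *Wnt3* had levels of 2.09, 2.79 and 1.22 in ES 129.3 and 0.16, 1.09 and 0.26 in the clone, with no overlap, and the median over the 17 was -0.16. Of 25 primitive endoderm genes 3 were called (12%, median -0.02): the keratins *Krt8* (-1.50) and *Krt19* (-2.02) fell, and *Cubn*, the endocytic receptor cubilin, rose with levels of 0.03, -0.14 and 0.73 against 1.21, 1.70 and 2.71 (1.67). The endoderm factors *Sox17* and *Sox7* were not called, at 0.53 and 0.75. Of 21 epiblast and neural genes (median -0.10) *Cdh2*, N-cadherin, was called (4.76%) with -1.80 ± 0.60 (SD over 3 media, adjusted p = 0.0236), and *Fgf5*, a marker of the post-implantation epiblast, had differences of -2.39, -0.84 and -0.42 without a call. Of 14 trophectoderm genes (median -0.03) limma called 0, with 3 at an unadjusted p under 0.05 (33.4% among genes with a symbol), and *Cdx2*, the factor that founds that lineage, differed by 0.19. Of the streak genes 1 was called without the LIF+ pair, and of the endoderm genes 1 without the LIF- pair. The count of epiblast and neural genes was 0 without the LIF+ pair, without the LIF- pair, with no background correction or without the block.

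Targets of LIF and of RA had shares of calls near and below the 7.32% of genes with a symbol. Of 13 LIF and Stat3 response genes *Icam1*, an adhesion molecule, was called (7.69%), with 1.24 ± 0.16 (SD over 3 media, adjusted p = 0.00784), and the median over the list was -0.05. The count of this list was 0 without the LIF+ pair, with no background correction or without the block. *Socs3*, the feedback inhibitor induced by Stat3, had levels of 0.42, -1.64 and 0.74 in ES 129.3 and 0.69, -2.25 and 0.71 in the clone. It was lowest on the LIF- array of both lines, and the lines lay close together with LIF. Of 16 RA response genes (median -0.10) limma called 0, with 4 at an unadjusted p under 0.05, where 33.4% of genes with a symbol had one. Without the RA pair 3 of the 16 were called. *Cyp26a1*, the enzyme that clears RA, had levels of 0.47, 1.05 and 2.61 against -0.03, 0.25 and 2.88 and was highest on RA in either line. Over all genes, LIF withdrawal was accompanied by a level at least 2-fold lower in 77 genes (0.204%) and higher in 49 (0.13%) in ES 129.3, and lower in 149 (0.395%) and higher in 189 (0.501%) in the clone. On RA 231 genes (0.613%) were at least 2-fold lower and 598 (1.59%) higher than with LIF in ES 129.3, against 173 (0.459%) and 615 (1.63%) in the clone. With 1 array for each line and medium these counts have no test.

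Germ line, cell cycle, stress and imprinted genes were read from 4 more lists, beside the same 7.32%. Of 21 germ line genes 6 were called (28.6%), 5 higher and 1 lower, with a median of 0.04 over the list. The count was 1 without the LIF+ pair and 0 with no background correction or without the block. *Dazl*, an RNA-binding protein of germ cells, had levels of 0.62, 0.56 and 1.07 in ES 129.3 and 1.70, 1.42 and 2.86 in the clone and rose by 1.24 ± 0.49 (SD over 3 media, adjusted p = 0.0343). *Sycp1*, of the synaptonemal complex (1.25), *Taf7l*, a testis form of a TFIID subunit (1.52), *Mael*, of the piRNA pathway (0.87), and *Gtsf1*, of the same pathway (0.84), rose too, and *Rhox5*, an X-linked homeobox gene, fell (-1.24). For *Taf7l*, *Sycp1*, *Dazl*, *Mael* and *Gtsf1* the lines did not overlap, but these 5 were picked as called higher. All clone arrays lay above all parental arrays in 10.4% of all genes. Of 22 cell cycle genes 4 were called (18.2%): the G1 kinase *Cdk6* (-1.78), its cyclin *Ccnd1* (-1.13) and the inhibitor *Cdkn1a*, p21 (-0.73), fell, and *Mybl2*, a factor of S and G2 phase, rose by 1.32 ± 0.07 (SD over 3 media, adjusted p = 0.00506). The median over the 22 was -0.00238. *Cdk6* had levels of -0.44, -0.25 and -0.16 against -2.04, -2.25 and -1.90. Of 15 p53 and stress genes *Cdkn1a*, *Atf3*, a stress-induced factor (-0.77), and *Perp*, a p53 target at cell junctions (-0.86), fell (20%), while the median over the list was 0.22. Of 18 imprinted genes *Grb10*, an adaptor that restrains insulin signalling, was the call (5.56%), with -1.07 ± 0.19 (SD over 3 media, adjusted p = 0.0105), and the median was -0.35. Without the LIF+ pair 2 cell cycle genes, 1 stress gene and 0 imprinted genes were called. Of the called genes named here *Cdkn1a*, *Lefty2* and *Nodal* stand in more than 1 list.

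Some genes differed between the lines in a way that depended on the medium, and 10 were chosen for the widest range of the difference over the 3 media, which is given with no test. *Zscan4c*, of a multicopy family expressed at the 2-cell stage and in a small share of ES cells, had levels of 2.49, 1.28 and 5.81 in ES 129.3 and 5.88, 5.56 and 5.61 in the clone. It was high on all clone arrays and on the parental RA array, and low on the other parental arrays. *Tcstv3*, a gene of the same stage, had 1.00, 0.28 and 4.24 against 4.28, 4.03 and 5.22. *Stra8*, the RA-induced gene of meiotic entry, had 1.05, 0.24 and 4.82 against 3.43, 2.52 and 4.39. These 3 genes shared the pattern of a parental line that reached the level of the clone, or came near it, only on RA. *Cth*, an enzyme of cysteine synthesis, had 2.40, 2.42 and -0.06 against 2.99, 2.09 and 2.37 and was low on the parental RA array alone. *Gadd45g*, a growth arrest gene, differed by -0.23, 2.08 and -0.78. Lower on average were *T* (brachyury), the mesoderm factor, with 1.53, 3.20 and -0.01 in ES 129.3 and -0.02, 0.08 and -0.02 in the clone, and *Vrtn*, a DNA-binding protein, with 3.14, 3.93 and -0.06 against 0.09, 3.08 and 0.03. *T* was above the reference in ES 129.3 with and without LIF and close to it on all clone arrays. *Krt18*, the partner of Krt8 in keratin filaments, had levels of -0.07, -0.28 and 1.35 against -4.35, -2.28 and 0.12 and was lower in every medium. *Pou3f1* (Oct6) of the epiblast had differences of -1.89, 1.10 and 0.28, and *Nt5e*, an ecto-nucleotidase, differences of -0.73, -1.90 and 1.58, both with changes of direction between the media.

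**Figure D4:**
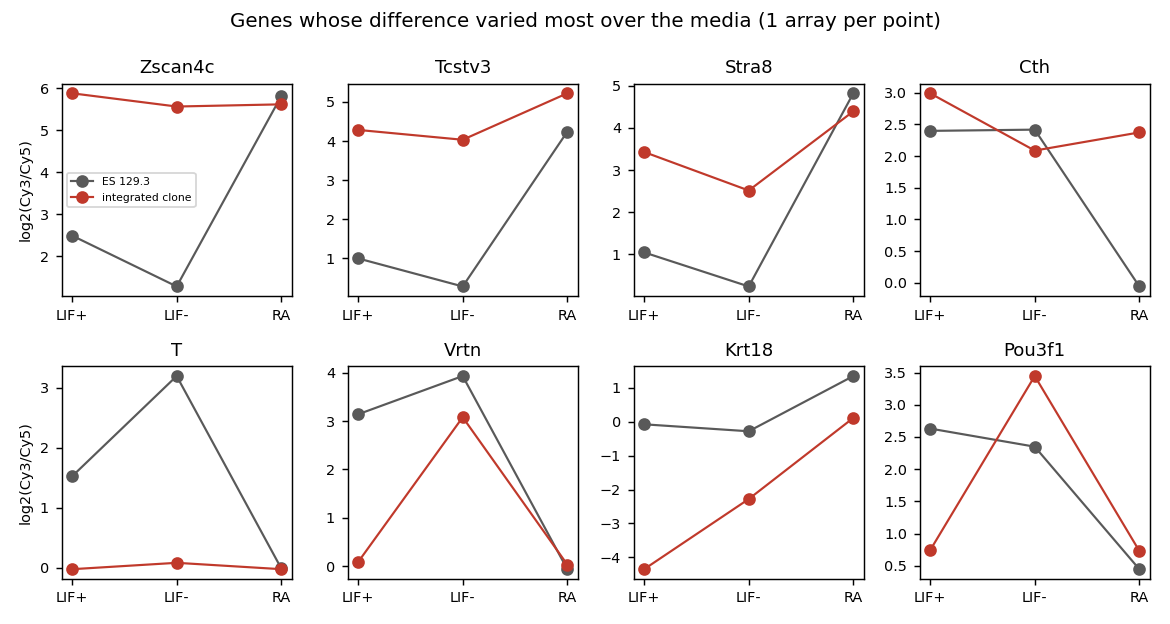
Levels (y axis, log2 of Cy3/Cy5, with its own range in each panel) of 8 genes whose difference between the lines varied widely over the 3 media (x axis). Each point is 1 array, grey for ES 129.3 and red for the integrated clone. Zscan4c, Tcstv3 and Stra8 climb on RA in ES 129.3, and T falls on RA in ES 129.3 but stays near 0 in the clone.

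The differences were then set against those of the episomal clone. A test of the integrated difference minus the episomal difference (limma, 12 arrays) called 310 genes (0.822%), 133 lower (0.353%) and 177 higher (0.469%) in the integrated clone. With the Cy3 signal alone the split was 79 lower and 184 higher. Of the 310 genes, 281 were also called in the integrated clone against ES 129.3, as were 4.13% of all genes. Both tests use the same arrays of that clone and of ES 129.3, so this overlap is in part built in. This test rested on all 3 media: limma called 0 genes without the LIF+ pairs (4938 at an unadjusted p under 0.05), 0 without the LIF- pairs (3333) and 19 without the RA pairs, of which 8 were among the 310. Among the 65 list members called in the integrated clone, 3 of the 16 contractile genes also had a called difference between the clones (*Acta2*, *Csrp1* and *Fhl2*). So had 3 of the 6 core pluripotency factors (*Nr5a2*, *Tfcp2l1* and *Zfp42*). Over all 1557 genes called in the integrated clone, 281 had one. Among named genes without one, *Dppa3* had means of -1.66 in the integrated and -1.65 in the episomal clone, and *Cubn* 1.67 and 1.90. *Sp5* (-3.05 and -1.10) and *Tbx3* (2.41 and 0.87) moved the same way but less in the episomal clone. *Rpl39l* (3.47 and -0.60) and *Fbxo15* (1.41 and -0.60) went opposite ways without a called difference between the clones.

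Most of the largest such differences were in genes with small differences in the episomal clone. *Prss23* had differences of -3.67, -3.00 and -3.58 in the integrated and -0.99, -0.72 and -0.29 in the episomal clone, -2.75 apart (moderated SE 0.23, adjusted p = 0.0151). *Gsn*, gelsolin, which severs actin filaments, went opposite ways, with -2.61, -1.67 and -2.04 and 0.60, 0.35 and 0.53, -2.60 apart (moderated SE 0.23, adjusted p = 0.0151). *S100a6* and *S100a4* had episomal differences of 0.29, -0.27 and -0.19 and -0.25, -0.09 and -0.04, all within 0.29 of 0, against falls of over 2 in the integrated clone. On the higher side, *Calcoco2* had 3.45, 3.80 and 2.62 and -1.09, 0.84 and -0.33, 3.48 apart (moderated SE 0.52, adjusted p = 0.0462). *Xlr4b* had 2.06, 1.54 and 2.31 and -1.38, -0.14 and -1.27, the latter all below 0. *Myo1f*, *Phf11* and *A530040E14Rik* had episomal means of 0.10, -0.28 and -0.38 against 2.62, 2.15 and 2.25. *Nanog* on its probe was -0.63, -0.46 and -0.60 in the episomal clone, below its parental line in each medium, and the difference between the clones was not called (adjusted p = 0.0767). Signals of each clone and its parental line were extracted from the scans on a day of their own, so day and pair of lines cannot be told apart here.

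**Figure D5:**
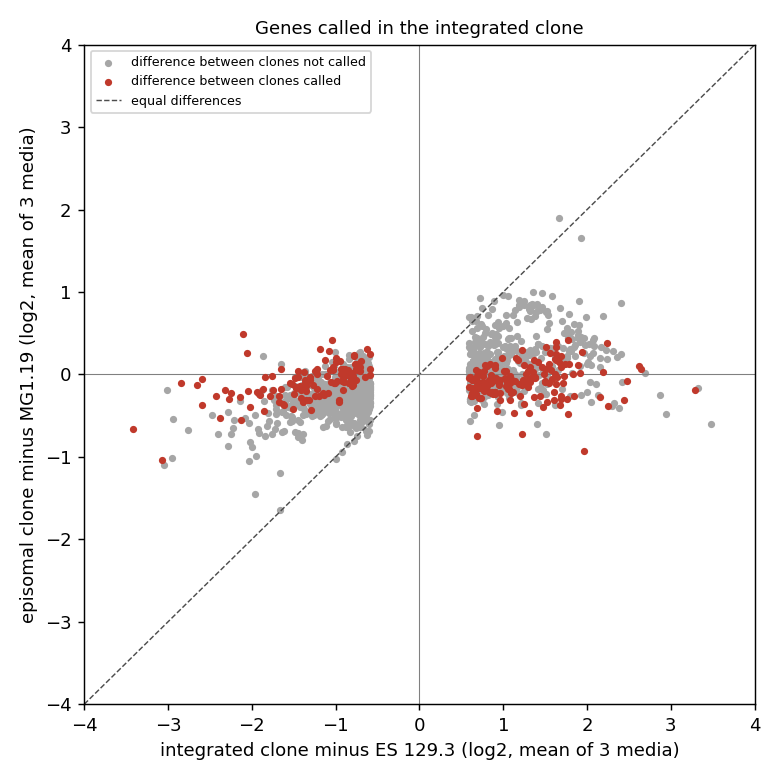
Mean difference over 3 media in the integrated clone (x axis, log2) and in the episomal clone (y axis, log2), each against its own parental line, for the 1557 genes called in the integrated clone. Each point is 1 gene, red for the 281 whose difference between the clones was called, and the dashed line marks equal differences. Most points lie nearer to 0 on the y axis than on the x axis, where the genes were chosen by the x axis.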

How the data were processed

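ES cells of 4 lines were measured on NIA Mouse 44K Microarray v2.1 arrays, of which the 6 of the integrated clone and ES 129.3 are described and the 6 of the episomal clone and MG1.19 serve for comparison. RNA of the cells was labelled with Cy3 and the reference with Cy5 on every array, with no exchange of dyes, so that an effect of the dyes is part of every level and drops out of differences between arrays.

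Scanner files deposited by the authors come from Agilent Feature Extraction (version 7.5.1 per the file headers) and give mean, background and processed signals of every spot in intensity units. The authors also deposited normalized values in log10 units, in which 1 column counts as score values because it holds -9999 as a code for a missing value. Over 12 arrays 10 such cells were set to missing. That set (41020 values per array) was used only as an alternative, and the parental arrays among them had been deposited before and were normalized again by the authors.

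From the mean signals, the background was corrected by normexp (offset 50), dyes were balanced by loess within arrays and control spots were left out, with limma 3.58.1 and data.table (1.17.8) in R 4.3.3. Spots flagged as outliers by the scanner software (3 to 9 on each of the 6 arrays) were removed, while saturated ones stayed in. The software called at least 99.7% of gene spots well above background, so that call was not used as a filter. Of 41006 gene probes, 15294 were named through their accession and 1377 through an oligo name used on a related design (among them *Acta2*, *Thbs1*, *Fst*, *S100a4*, *Calcoco2*, *Tbx3* and *Nanog*), and 24335 stayed without a symbol. The brightest probe stood for a gene, which gave 37715 genes. Python 3.11.15 with pandas 2.3.3 and matplotlib 3.10.9 made the summaries and figures.

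The clone was compared with ES 129.3 by lmFit and eBayes, two-sided, with the medium as a block and Benjamini-Hochberg adjustment over all probes. Pairing comes from the labels of the media, and deviations of the 2 arrays of a pair from their line's mean correlated across genes with r of 0.46, 0.53 and 0.69. With 1 array for each line and medium, the number of arrays limits the precision. Protein sequence to place the *Nanog* probe was not used here, and stop codons in the probe were counted instead. The genes named are *Nanog*, the 15 largest rises and falls called and at least 1.5-fold in all media, the called members of the lists with some members not called, the 5 largest differences between clones and the 5 widest ranges over media in each direction. Single values of some genes that this rule names are not reported here. Members, lists and tests were chosen with earlier results of these data known, so shares of called list members are no independent evidence. The alternatives were the authors' table, Feature Extraction's processed signals, no background correction, quantile normalization of the mean of both channels, Cy3 alone, the methods' correction of Cy5 bleaching, dim probes left out, each pair left out, no block, all 12 arrays in the fit, the methods' test, other fold thresholds and the mean over probes.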

Additional observations from a re-analysis of the deposited data

Results flagged for a closer look

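For 32 of the named genes, the difference between clone and parental line was itself different between the integrated and the episomal *Nanog* clone (limma on 12 arrays, adjusted p of 0.05 or less and at least 1.5-fold). This count is in part built in, so it is not read as an excess over the 0.822% of all genes that the test called. *Gsn* was named for this same difference alone, and others, such as *Prss23* and *Calcoco2*, in part for it. Most of the rest were named because they were called against the parental line on the same arrays of the integrated clone. Each value below is the integrated difference minus the episomal difference on the log2 scale, as a mean over 3 media.

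Lower in the integrated clone were matrix, secreted and calcium-binding proteins: *Prss23* at -2.75, *S100a6* at -2.54, *S100a4* at -2.53, *Fbln2* at -2.02, *Lgals7* at -1.85 and *Lox* at -1.57. Of the actin-linked genes, *Gsn* was at -2.60, *Acta2* at -2.04, *Fhl2* at -1.87 and *Csrp1* at -1.06. Signalling and transcription factors on this side were *Dusp4* at -2.17, *Inhba* at -2.13, *Flt1* at -1.73 and *Atf3* at -0.89. The keratin *Krt19* was at -1.63, the kinase *Cdk6* at -1.52, *Perp* at -0.86 and *Cdkn1a* at -0.81.

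Higher in the integrated clone were the pluripotency factors *Tfcp2l1* at 1.23, *Zfp42* at 1.15 and *Nr5a2* at 0.91, and the ES cell genes *Tcl1* at 1.86, *Nodal* at 0.81 and *Jam2* at 0.68. *Sycp1* of the germ line was at 1.13. The other genes on this side were *Calcoco2* at 3.48, *Xlr4b* at 2.90, *A530040E14Rik* at 2.63, *Myo1f* at 2.52, *Phf11* at 2.43, *Gsta3* at 1.85 and *Inpp5d* at 1.67. This comparison called 310 genes in all, 0 to 19 with the arrays of 1 medium left out, of which 8 of the 19 were among the 310, and 12 with no background correction, all 12 of them among the 310.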

How the results depend on the processing

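The count of 1557 called genes was 321 with no background correction, 758 by the methods' test, 643 at 2-fold and 2913 with no fold threshold. Without the pairing, with the medium not fitted as a block, it was 228. Leaving out 1 pair gave 429 to 1775 genes, the lowest without the LIF+ pair. The other settings gave 1298 to 1706 genes, with 1051 of the main calls shared by Cy3 alone and 1275 by the authors' table. Quantile normalization of the channel mean leaves log ratios as they are. Genes moved at least 1.5-fold in all 3 media numbered 1118, against 533 with no background correction, 389 at 2-fold and 16943 by sign alone. Over the 2 media that remain when 1 is left out the numbers were 1309 to 1599. The count of 310 genes that differed between the clones was 12 with no background correction and 0 to 19 when a pair was left out. The count of 65 called list members was 14 with no background correction, 6 without the block, and 28 to 75 with a pair left out.

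*Nanog* stayed between 0.52 and 1.04 with a pair left out and passed the threshold without the LIF- pair at 1.04. Without the block its mean was the same, 0.75, with an adjusted p of 0.158. With a pair left out, *Pou3f1* ranged from -0.80 to 0.69, *Gadd45g* from -0.51 to 0.93 and *Nt5e* from -1.31 to 0.42, and of 96 genes chosen by the rule for naming these 3 changed direction, none of them called. All 30 genes of the largest falls and rises kept their direction under 11 settings. Several of these settings could not turn them. The 30 were chosen for the same direction in each medium, so a mean without 1 pair keeps its sign. Dropping the block, leaving out dim probes and quantile normalization of the channel mean do not alter the mean difference. They were all called with Cy3 alone, and 27 were with the authors' table, 20 without the LIF+ pair, 14 with no background correction and 7 without the block. The cause of these changes was not tested, beyond the fewer samples of a fit with a pair left out.

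The Cy3 median was 531 to 662 over a background of 375 to 378, which limits the precision of weak signals.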

Other observations

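The differences between the clone and ES 129.3 were alike from medium to medium, with r across genes of 0.74 between LIF+ and LIF-, 0.69 between LIF+ and RA and 0.65 between LIF- and RA. These correlations are over genes of 6 arrays with 1 reference and are given as a description. By chromosome, the median difference of 5090 genes with a mean Cy3 signal over 1000 lay between -0.16 and 0.04 on all 20 chromosomes, against -0.01 over all of these genes.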
